A study of Mus musculus with 12 samples.

Results

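The genes examined here are 10 of the 52636 genes in a count table of mouse skin, chosen by symbol for their part in the thrombospondin system and in blood vessel growth. They comprise the thrombospondins *Thbs1* and *Thbs2*, the thrombospondin receptors *Cd36* and *Cd47*, the growth factor gene *Vegfa*, the vascular receptors *Kdr*, *Flt1* and *Tek*, and the endothelial junction genes *Pecam1* and *Cdh5*. All 10 were kept by the filter on low counts, as were 18822 genes in all.

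Full-thickness dorsal skin of mice, 3 months old and labelled C57BL/6 (C57BL/6J in the study's methods), was sequenced on day 14 in 4 groups of 3 mice. The WT group (genotype wild type) and the KO group (genotype *Cdc42*-/-) received the vehicle, normal saline with HPMC (hydroxypropyl methylcellulose, a thickener), on shaved skin. The other groups, WT+ZnO NPs and KO+ZnO NPs, received zinc oxide nanoparticles in the same vehicle. *Cdc42*, which encodes a small GTPase of cell polarity, was deleted by Cre recombinase under the K5 promoter, which is active in basal keratinocytes and not in blood vessels, and the WT controls were Cre-negative mice with floxed alleles. The study's methods name the KO mice as female and use the KO skin as a model of a weakened epidermal barrier. The design asks whether the nanoparticles change gene expression in intact and in barrier-impaired skin.

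Thrombospondins are large secreted glycoproteins that bind matrix, growth factors and cell surface receptors, and they restrain the growth of capillaries. CD36 and CD47 carry the signal of thrombospondin-1 into endothelial cells. VEGF-A, which keratinocytes secrete in skin, acts in the opposite direction by binding the tyrosine kinase receptors encoded by *Kdr* and *Flt1*, and angiopoietins act through the receptor encoded by *Tek*.

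Total counts lay between 21076320 and 28867802 per library. As markers of skin, 6 keratinocyte genes summed to 5998 to 22045 CPM in every library, and 6 skeletal muscle genes, from tissue beneath the dermis, varied from 1191 to 19883 CPM. Levels are given in CPM, counts relative to the library's total scaled by TMM factors, and a gene was called changed at an adjusted p below 0.05 in the quasi-likelihood test of edgeR over all genes tested. *Cdc42* stood at 606 to 628 CPM in WT, at 310 to 350 CPM in libraries labelled WT+ZnO NPs, at 415 to 464 CPM in KO and at 313 to 453 CPM in libraries labelled KO+ZnO NPs. Its transcript was thus lower in libraries labelled WT+ZnO NPs than in every KO library, which goes against their label, and each direction given for them below rests on that label. The sum of 4 Y-linked transcripts was 192 to 242 CPM in the 3 labelled WT+ZnO NPs, in KO replicate 1 and in KO+ZnO NPs replicate 1. In these libraries *Xist* stood at 0 to 0.474 CPM, the pattern of male mice. For KO replicate 1 and KO+ZnO NPs replicate 1 this goes against the methods, which name the KO mice as female. In the other 7 libraries the Y-linked sum stayed at or below 0.0504 CPM and *Xist* stood at 459 to 1032 CPM, the pattern of female mice. No WT library held Y-linked transcripts, so the comparison of WT+ZnO NPs with WT sets male against female skin. Sex and the label cannot be told apart in it.

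In vehicle-treated WT skin *Cd36* was the most abundant of the 10 transcripts per length, at 431 ± 84.7 CPM per kb of exon (SD, n = 3). *Thbs2* followed at 58.7 ± 9.63, *Cd47* at 49.7 ± 3.48, *Thbs1* at 47.8 ± 10.7 and *Pecam1* at 38.3 ± 1.91 CPM per kb. The ranges of these 4 genes overlapped between neighbours in that order. *Cdh5* at 28.8 ± 1.36, *Vegfa* at 19.1 ± 0.659, *Tek* at 11.8 ± 0.875, *Kdr* at 7.43 ± 0.740 and *Flt1* at 5.03 ± 0.365 CPM per kb followed without overlap. In libraries labelled WT+ZnO NPs the order differed: *Thbs1*, at 61.7 ± 35.7 CPM per kb, stood next to *Cd36* at 71.4 ± 14.9 CPM per kb and overlapped it, and *Vegfa* at 23.0 ± 2.89 stood above *Cd47* at 17.3 ± 0.820 and *Thbs2* at 15.5 ± 6.73 CPM per kb.

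**Figure D1:**
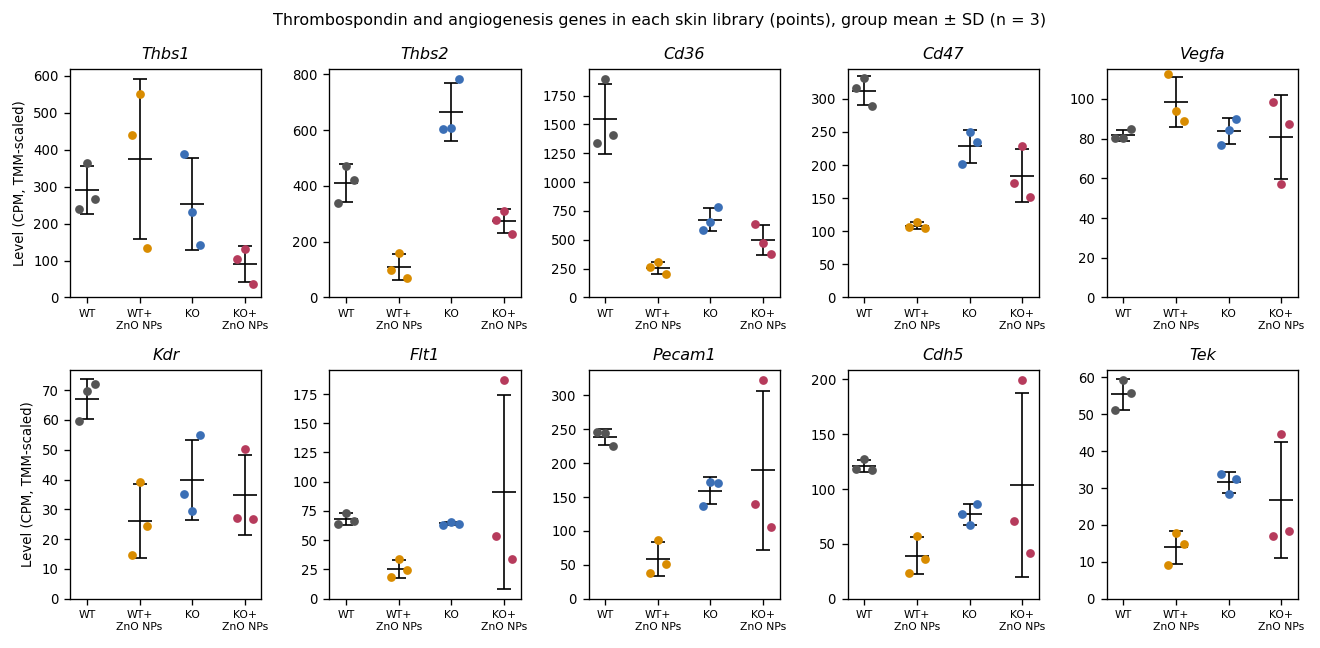
Level of each of the 10 genes (vertical axis, CPM scaled by TMM factors, starting at 0, with its own scale for each gene) in the 4 groups (horizontal axis), with points for the libraries of replicates 1, 2 and 3 from left to right and bars for the mean ± SD (n = 3). In libraries labelled WT+ZnO NPs 8 genes lie below every WT library, whereas *Thbs1* and *Vegfa* do not. The share of all genes separated in this way was not counted, and 43.0% of all genes were called in this comparison, 22.1% lower. KO+ZnO NPs replicate 2 lies far above its group in *Flt1*, *Pecam1* and *Cdh5*.

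*Thbs1* (ENSMUSG00000040152, chr2:118111876-118127133 of GRCm38, plus strand) encodes thrombospondin-1. Its level was 240, 364 and 267 CPM in WT and 441, 551 and 133 CPM in libraries labelled WT+ZnO NPs. In KO skin it was 387, 233 and 142 CPM. The KO+ZnO NPs libraries held 104, 130.0 and 35.2 CPM. These libraries therefore all lay below every library of the other 3 groups, whereas those 3 groups overlapped each other. The fitted log2 difference of KO+ZnO NPs from KO was -1.50 ± 0.58 (SE), with an adjusted p of 0.0990, and that from WT+ZnO NPs was -2.06 ± 0.59, with an adjusted p of 0.0718, so neither passed the threshold. Both passed it in DESeq2, with adjusted p of 0.0357 and 0.00479, and in edgeR with the replicate number as a block in the fit. The differences of KO from WT (-0.19 ± 0.56, adjusted p = 0.871) and of WT+ZnO NPs from WT (0.37 ± 0.56, adjusted p = 0.618) were smaller than their standard errors. The interaction was -1.87 ± 0.80 (adjusted p = 0.162). The gene overlaps the lincRNA gene *Gm29233* on the opposite strand, and whether its reads were counted by strand is not given in the sources used here.

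*Thbs2* (ENSMUSG00000023885, chr17:14665500-14694235, minus strand) encodes thrombospondin-2, a related inhibitor of vessel growth made mainly by fibroblasts. It was measured at 338, 472 and 423 CPM in WT and at 97.7, 160.4 and 68.1 CPM in libraries labelled WT+ZnO NPs. The KO libraries held 605, 607 and 784 CPM. The KO+ZnO NPs libraries held 279, 312 and 227 CPM. No 2 of the 4 groups overlapped, and the level fell with ZnO NPs in both genotypes. The fall was 3.78-fold in WT (log2 -1.92 ± 0.29, adjusted p = 0.000527) and 2.44-fold in KO (log2 -1.29 ± 0.28, adjusted p = 0.0175). The interaction of genotype and ZnO NPs, which is the difference between these changes, was 0.63 ± 0.39 (95% interval -0.24 to 1.50, adjusted p = 0.326). *Thbs2* was higher in KO+ZnO NPs than in WT+ZnO NPs by 1.33 ± 0.28 on the log2 scale (adjusted p = 0.0396), and the difference of KO from WT, 0.70 ± 0.28, did not pass the threshold (adjusted p = 0.145). Without KO replicate 2, KO replicate 3 or KO+ZnO NPs replicate 3 the fall in KO skin was no longer called (log2 -1.34, -1.16 and -1.15, adjusted p = 0.0583, 0.0591 and 0.0505). Among libraries free of Y-linked transcripts it was -1.36 (adjusted p = 0.0237).

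Summed fibroblast markers (5 genes) ranged from 3601 to 7298 CPM in WT, from 5611 to 24826 CPM in WT+ZnO NPs, from 13525 to 23114 CPM in KO and from 10546 to 14044 CPM in KO+ZnO NPs. In WT+ZnO NPs against WT the matrix gene *Dpt* (log2 -2.30 ± 0.34, adjusted p = 0.000476) and the growth factor receptor gene *Pdgfra* (-2.16 ± 0.38, adjusted p = 0.00138) fell with *Thbs2*, while the collagen gene *Col1a1* was called higher (1.69 ± 0.59, adjusted p = 0.0394) although the groups overlapped, a call lost with the replicate block, with the Y-linked covariate and with edgeR on only these groups. Of the 5, *Pdgfra* alone was called in KO+ZnO NPs against KO (-1.28 ± 0.37, adjusted p = 0.0439), a call lost with the covariate, on only these groups and among libraries free of Y-linked transcripts. The part of these markers in the result was not tested.

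The receptor genes *Cd36* and *Cd47* correlated with *Thbs2* over the 12 libraries (Pearson correlations of 0.744 and 0.823 on log2(CPM + 1)) more than with *Thbs1* (0.162 and 0.0556). *Cd36* (ENSMUSG00000002944, chr5:17781690-17888801, minus strand), a scavenger receptor that also takes up fatty acids in capillaries, adipocytes and macrophages, stood at 1339, 1897 and 1409.9 CPM in WT. It stood at 261, 307 and 200.5 CPM in libraries labelled WT+ZnO NPs. The KO libraries held 587, 653 and 781 CPM and the KO+ZnO NPs libraries 637, 471 and 379 CPM. All 9 libraries of the other groups lay below the lowest WT library, and the KO and KO+ZnO NPs groups overlapped. *Cd36* was 6.04-fold lower in WT+ZnO NPs than in WT (log2 -2.59 ± 0.25, adjusted p = 5.08e-05). It was 2.30-fold lower in KO than in WT (log2 -1.20 ± 0.24, adjusted p = 0.0163), the only gene of the set that edgeR called there in the fit to all libraries. The change with ZnO NPs in KO skin was -0.44 ± 0.24 (adjusted p = 0.227), and it differed from that in WT skin by 2.15 ± 0.34 (adjusted p = 0.00874). KO+ZnO NPs differed from WT+ZnO NPs by 0.95 ± 0.24 (adjusted p = 0.0553).

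The call of *Cd36* in KO against WT was lost without WT replicate 2 (log2 -1.03, adjusted p = 0.0786), without KO replicate 1 (-1.11, adjusted p = 0.0591), without KO replicate 2 (-1.17, adjusted p = 0.0553) and among libraries free of Y-linked transcripts (-1.11, adjusted p = 0.0599). Markers of other cells that express *Cd36* were read beside it. The 8 adipocyte markers summed to 6158 to 8919.8 CPM in WT, 1279 to 2398 CPM in WT+ZnO NPs, 2606 to 4685 CPM in KO and 1307 to 5864 CPM in KO+ZnO NPs. The 6 macrophage markers summed to 3351 to 4318 CPM in WT, 210.4 to 450 CPM in WT+ZnO NPs, 1840.4 to 3349 CPM in KO and 378 to 869.8 CPM in KO+ZnO NPs. No marker of either list was at 0 throughout a group. Between KO and WT edgeR called 0 of 8 adipocyte markers (1 at an unadjusted p below 0.05, 1 by DESeq2) and 0 of 6 macrophage markers (2 at an unadjusted p below 0.05, 1 by DESeq2). Over all genes it called 8.18% there, 3.58% lower. On only these groups it called 1 adipocyte marker higher and 3 lower, and 1 macrophage marker lower, beside 1421 of 17608 genes higher and 1373 lower. Of the 8 adipocyte markers 6 fell in WT+ZnO NPs against WT (22.1% of all genes were called lower), among them *Fabp4* (log2 -2.47), *Cidec* (-2.57) and *Plin1* (-2.96), and 6 of 6 macrophage markers fell, among them *Adgre1* (-5.06), *Cd68* (-4.46) and *C1qa* (-3.24). The adipocyte count was 3 with library size as the only scaling, 3 with the Y-linked covariate and 2 with the replicate block. Macrophage markers fell in KO+ZnO NPs against KO as well (6 of 6, or 3 with edgeR on only those groups, beside 8.09% of all genes, with *Csf1r* at -2.08, *Cd68* at -2.36 and *Adgre1* at -2.35), a comparison in which *Cd36* was not called and 0 of 8 adipocyte markers were called by edgeR, 0 at an unadjusted p below 0.05 and 0 by DESeq2. The part of these markers in the level of *Cd36* was not tested.

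*Cd47* (ENSMUSG00000055447, chr16:49800533-49915010, plus strand) encodes a widely expressed integrin-associated protein that also tells macrophages not to engulf the cell. Its level was 316, 332 and 289 CPM in WT and 106, 114 and 105 CPM in libraries labelled WT+ZnO NPs. It was 201, 249.7 and 235 CPM in KO and 173, 229 and 151 CPM in KO+ZnO NPs. The WT+ZnO NPs libraries lay below all others. The fall with ZnO NPs was 2.88-fold in WT (log2 -1.53 ± 0.16, adjusted p = 7.04e-05), whereas in KO the difference was -0.31 ± 0.16 (adjusted p = 0.193). The interaction was 1.21 ± 0.22 (adjusted p = 0.0128). *Cd47* was higher in KO+ZnO NPs than in WT+ZnO NPs by 0.76 ± 0.16 on the log2 scale (adjusted p = 0.0373), a call lost without the filter on low counts (0.77, adjusted p = 0.0516). Between KO and WT the difference was -0.45 ± 0.16 (adjusted p = 0.0996).

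Of 10 other thrombospondin partners, 7 fell in WT+ZnO NPs against WT, where 22.1% of all genes were called lower, and 4 in KO+ZnO NPs against KO, where 8.09% were, and none rose. The integrin gene *Itga4* fell by 3.46 and 2.20, *Sirpa*, the macrophage receptor for CD47, by 2.24 and 1.85, and the endocytic receptor gene *Lrp1*, which clears thrombospondins, by 1.78 and 1.24 on the log2 scale in these comparisons. The median log2 difference over the 10 partners was -0.999 in WT skin and -0.425 in KO skin, beside 0.0563 and 0.00728 over all genes. All 6 macrophage markers were called lower in both comparisons as well, and their sums, given above with *Cd36*, did not overlap between the groups compared. Their part in the fall of these partners was not tested. Of the 3 other thrombospondin family genes *Thbs3*, *Thbs4* and *Comp*, edgeR on all libraries called 0 in any comparison. In WT+ZnO NPs against WT and in KO+ZnO NPs against KO 1 of the 3 had an unadjusted p below 0.05 and 1 was called lower by DESeq2, and in the remaining comparisons the counts were 0 and 0. edgeR also called 1 lower in the former on only those groups and 1 lower in the latter with the Y-linked covariate.

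*Vegfa* (ENSMUSG00000023951, chr17:46016993-46032369, minus strand), whose product drives the growth of endothelial cells and keeps them alive, spanned 57.4 to 112 CPM over the 12 libraries. It was measured at 80.1, 80.0 and 84.9 CPM in WT and at 112, 94.1 and 88.7 CPM in libraries labelled WT+ZnO NPs. The KO libraries held 76.8, 84.5 and 90.1 CPM and the KO+ZnO NPs libraries 98.3, 57.4 and 87.2 CPM. The WT+ZnO NPs libraries lay above the WT libraries without overlap, but the difference of 0.27 ± 0.18 was not called (95% interval -0.12 to 0.66, adjusted p = 0.238). The other differences were 0.04 in KO against WT (95% interval -0.35 to 0.43, adjusted p = 0.928), -0.05 in KO+ZnO NPs against KO (-0.44 to 0.34, adjusted p = 0.870) and -0.28 in KO+ZnO NPs against WT+ZnO NPs (-0.67 to 0.11, adjusted p = 0.347). The interaction was -0.32 ± 0.25 (adjusted p = 0.439).

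*Kdr* (ENSMUSG00000062960, chr5:75932827-75978458, minus strand) encodes the main signalling receptor for VEGF-A. *Flt1* (ENSMUSG00000029648, chr5:147561604-147726011, minus strand) encodes a receptor that binds VEGF-A tightly and, in its soluble form, holds it away from the former. *Tek* (ENSMUSG00000006386, chr4:94739289-94874976, plus strand) encodes the angiopoietin receptor TIE2. The 250 bases before the start of each are shown from RefSeq (GRCm38.p6), 5′ to 3′ along the gene, at chr5:75978456-75978705 on the minus strand for *Kdr*, at chr5:147726012-147726261 on the minus strand for *Flt1* and at chr4:94739039-94739288 on the plus strand for *Tek*. Their part in the levels was not tested. Capitals mark, on either strand, GGAA, the core of ETS family sites that many endothelial promoters use, TGACGTCA, the cyclic AMP response element, and TATAAA, the TATA box.
Kdr: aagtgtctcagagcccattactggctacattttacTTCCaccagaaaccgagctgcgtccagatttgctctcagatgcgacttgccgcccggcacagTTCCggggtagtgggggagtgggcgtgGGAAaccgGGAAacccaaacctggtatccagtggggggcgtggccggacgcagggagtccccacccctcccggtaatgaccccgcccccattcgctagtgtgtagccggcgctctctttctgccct
Flt1: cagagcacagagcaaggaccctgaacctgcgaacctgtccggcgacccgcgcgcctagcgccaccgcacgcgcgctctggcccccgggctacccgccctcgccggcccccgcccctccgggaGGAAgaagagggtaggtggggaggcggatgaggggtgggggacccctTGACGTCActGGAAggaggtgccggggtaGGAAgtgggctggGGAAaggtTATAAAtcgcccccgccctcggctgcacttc
Tek: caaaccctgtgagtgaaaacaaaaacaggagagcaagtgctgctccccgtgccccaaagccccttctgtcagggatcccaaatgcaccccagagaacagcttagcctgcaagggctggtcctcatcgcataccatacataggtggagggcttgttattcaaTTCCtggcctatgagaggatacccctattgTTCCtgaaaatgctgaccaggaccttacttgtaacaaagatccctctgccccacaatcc

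The *Kdr* stretch held 4 GGAA matches, that of *Flt1* 4 and that of *Tek* 2. GGAA is short and occurred in 93.4% of 32851 promoters of the same length, with a mean of 2.91 matches, so these numbers lie around those of promoters at large. *Flt1* held the only match among them to TGACGTCA, at position -81, and to TATAAA, at position -31, counted back from the start, letters found in 1.55% and 12.4% of promoters. The letters of these last motifs were chosen after the promoters had been read, and no matches overlapped.

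The level of *Kdr* was 59.5, 69.7 and 72.1 CPM in WT and 14.7, 39.2 and 24.4 CPM in libraries labelled WT+ZnO NPs. It was 35.2, 29.4 and 54.8 CPM in KO and 27.2, 50.4 and 26.8 CPM in KO+ZnO NPs. WT lay above every other library, and the other 3 groups overlapped. *Kdr* was 2.57-fold lower in WT+ZnO NPs than in WT (log2 -1.36 ± 0.37, adjusted p = 0.0131). In KO against WT the difference was -0.75 ± 0.36 (adjusted p = 0.221). *Kdr* differed by -0.20 ± 0.36 in KO+ZnO NPs against KO (adjusted p = 0.740) and by 0.41 ± 0.37 in KO+ZnO NPs against WT+ZnO NPs (adjusted p = 0.511), with an interaction of 1.17 ± 0.52 (adjusted p = 0.172).

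*Flt1* was measured at 63.8, 73.4 and 66.7 CPM in WT and at 18.3, 33.9 and 24.3 CPM in libraries labelled WT+ZnO NPs. The KO libraries held 63.4, 65.9 and 63.6 CPM, and the KO+ZnO NPs libraries 53.2, 186.6 and 34.0 CPM. Unlike the other endothelial genes of the set, *Flt1* overlapped between KO and WT (log2 -0.08 ± 0.49, adjusted p = 0.946), and KO+ZnO NPs replicate 2 held more of it than any other library. The fall in WT+ZnO NPs against WT was 2.66-fold (log2 -1.41 ± 0.50, adjusted p = 0.0420). This call was lost without WT replicate 1, 2 or 3 (log2 -1.46, -1.36 and -1.43, adjusted p = 0.0724, 0.0944 and 0.0785) and without WT+ZnO NPs replicate 1 or 3 (-1.22 and -1.38, adjusted p = 0.123 and 0.110). *Flt1* was not called in KO+ZnO NPs against KO (0.50 ± 0.49, adjusted p = 0.508), in KO+ZnO NPs against WT+ZnO NPs (1.84 ± 0.51, adjusted p = 0.0675) or in the interaction (1.92 ± 0.70, adjusted p = 0.109).

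*Tek* stood at 51.0, 59.2 and 55.8 CPM in WT and at 9.11, 17.8 and 14.9 CPM in libraries labelled WT+ZnO NPs. The KO libraries held 33.9, 28.4 and 32.4 CPM, between those groups without overlap with either. The KO+ZnO NPs libraries held 17.0, 44.8 and 18.4 CPM, on either side of KO. *Tek* was 3.97-fold lower in WT+ZnO NPs than in WT (log2 -1.99 ± 0.36, adjusted p = 0.00152), and lower by a log2 of -0.81 ± 0.35 in KO than in WT, which was not called (adjusted p = 0.167). The differences of KO+ZnO NPs from KO (-0.24 ± 0.35, adjusted p = 0.664) and from WT+ZnO NPs (0.94 ± 0.35, adjusted p = 0.135) and the interaction (1.75 ± 0.49, adjusted p = 0.0519) did not pass the threshold.

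*Pecam1* (ENSMUSG00000020717, chr11:106654217-106750628, minus strand) and *Cdh5* (ENSMUSG00000031871, chr8:104101625-104144511, plus strand) encode CD31 and VE-cadherin, which hold endothelial cells together. *Pecam1* was measured at 246, 244 and 225 CPM in WT and at 38.1, 87.2 and 51.4 CPM in libraries labelled WT+ZnO NPs. It was 136, 172 and 170.1 CPM in KO and 139, 323 and 106 CPM in KO+ZnO NPs. The WT+ZnO NPs libraries lay below all others, and KO+ZnO NPs replicate 2 above all others. *Pecam1* fell 4.05-fold in WT+ZnO NPs against WT (log2 -2.02 ± 0.40, adjusted p = 0.00267), and KO differed from WT by -0.58 ± 0.39 (adjusted p = 0.379). The difference of KO+ZnO NPs from KO was 0.25 ± 0.39 (adjusted p = 0.689), and the interaction was 2.27 ± 0.55 (adjusted p = 0.0328). It was higher in KO+ZnO NPs than in WT+ZnO NPs by 1.68 ± 0.40 on the log2 scale (adjusted p = 0.0490), a call lost with RLE scaling (1.66, adjusted p = 0.0528).

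The level of *Cdh5* was 118, 128 and 117 CPM in WT, 23.7, 57.1 and 35.9 CPM in libraries labelled WT+ZnO NPs, 76.9, 67.5 and 85.9 CPM in KO, and 70.6, 199.6 and 41.6 CPM in KO+ZnO NPs. The WT, KO and WT+ZnO NPs groups were separate in that order, and KO+ZnO NPs reached from within the WT+ZnO NPs range to above WT. The fall in WT+ZnO NPs against WT was 3.11-fold (log2 -1.64 ± 0.49, adjusted p = 0.0201), a call lost without WT replicate 2 (-1.60, adjusted p = 0.0505) and without WT+ZnO NPs replicate 1 or 3 (-1.38 and -1.58, adjusted p = 0.0689 and 0.0679). Its differences were not called in KO against WT (-0.66 ± 0.48, adjusted p = 0.424), in KO+ZnO NPs against KO (0.44 ± 0.48, adjusted p = 0.558) or in KO+ZnO NPs against WT+ZnO NPs (1.42 ± 0.49, adjusted p = 0.108). Its interaction, 2.07 ± 0.68, was not called either (adjusted p = 0.0799). An antisense gene, *Gm29682*, overlaps *Cdh5*.

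Without KO+ZnO NPs replicate 2 the differences of KO+ZnO NPs from KO turned from 0.50 to -0.54 for *Flt1*, from 0.25 to -0.36 for *Pecam1* and from 0.44 to -0.43 for *Cdh5* on the log2 scale, none of them called. That library also held 1625 CPM of 5 red cell genes, against 157 and 203 CPM in the other KO+ZnO NPs libraries. Its 8 adipocyte markers summed to 1307 CPM, against 4217 and 5864 CPM. The part of these in its endothelial levels was not tested.

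Counted together, 8 of the 10 genes were lower in WT+ZnO NPs than in WT and none was higher, where 43.0% of all genes were called and 22.1% were called lower. Their median log2 difference was -1.58, against 0.0563 over all genes. In KO against WT 1 of 10 was called, lower, beside 8.18% of all genes called and 3.58% called lower, with medians of -0.516 and 0.00998. On only these groups edgeR called 5 (*Cd36*, *Cdh5*, *Pecam1* and *Tek* lower and *Thbs2* higher), and among libraries free of Y-linked transcripts 0, with 3 at an unadjusted p below 0.05. In KO+ZnO NPs against KO 1 of 10 was called, lower, beside 14.7% called and 8.09% called lower, with medians of -0.218 and 0.00728. In KO+ZnO NPs against WT+ZnO NPs 3 of 10 (*Thbs2*, *Cd47* and *Pecam1*) were higher, beside 3.28% called and 2.13% called higher, with medians of 0.943 and 0.0405. The interaction was called for 3 of 10 (*Cd36*, *Cd47* and *Pecam1*), all positive, beside 8.68% of all genes called and 5.08% called positive, with medians of 1.48 and 0.0244. The calls in KO+ZnO NPs against WT+ZnO NPs were lost, with 0 of 10 genes called by edgeR and 6 to 9 at an unadjusted p below 0.05, without WT+ZnO NPs replicate 1 or 3 or KO+ZnO NPs replicate 1 or 2. The log2 differences were then 1.08 to 1.31 for *Thbs2*, 0.57 to 0.81 for *Cd47* and 1.04 to 1.87 for *Pecam1*, with adjusted p of 0.0640 to 0.178, and *Cd47* was also lost without WT+ZnO NPs replicate 2 (0.81, adjusted p = 0.0578). These comparisons share libraries, so their counts are not independent.

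**Figure D2:**
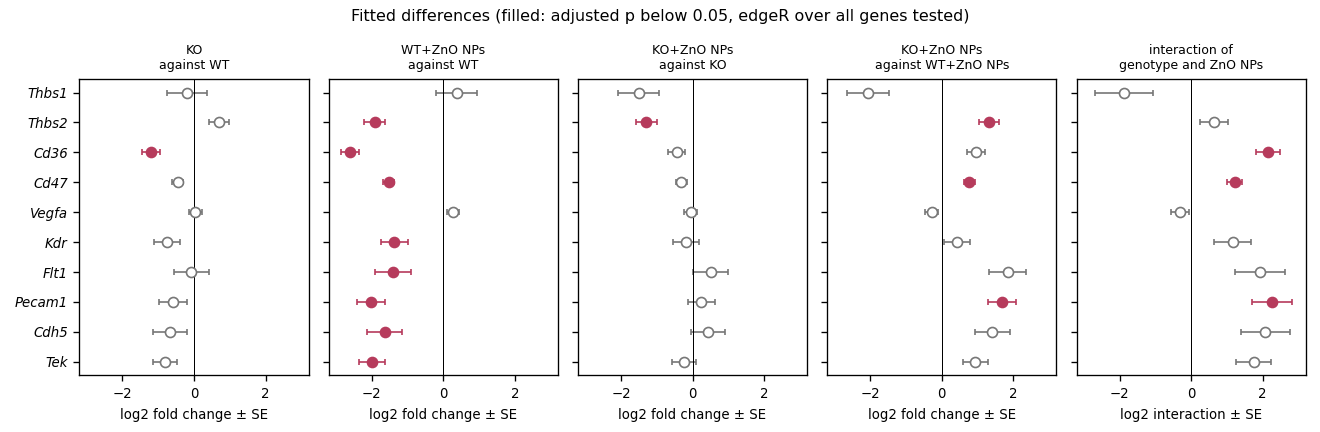
Fitted log2 difference ± SE (horizontal axis, the same scale in every panel) of the 10 genes (vertical axis) in the 4 comparisons of groups and in the interaction of genotype and ZnO NPs, with filled points for genes called at an adjusted p below 0.05. All filled points lie below 0 in WT+ZnO NPs against WT (8 genes, beside 22.1% of all genes called lower). *Thbs1* lies on the negative side in KO+ZnO NPs against KO (-1.50) and against WT+ZnO NPs (-2.06) without being called.

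Some of these counts changed when Y-linked transcripts were taken into the fit. Their presence was a covariate, whose effect the fit takes from the KO and KO+ZnO NPs groups since the WT groups do not vary in it. Over all genes 2308 of 18822 were then called lower in WT+ZnO NPs against WT, in place of 4163. Of the 8 genes, 4 stayed called in that comparison, namely *Cd36*, *Thbs2*, *Cd47* and *Tek*. The log2 differences of the others were -1.55 for *Pecam1* (adjusted p = 0.0714), -1.27 for *Cdh5* (adjusted p = 0.221), -0.98 for *Kdr* (adjusted p = 0.205) and -0.90 for *Flt1* (adjusted p = 0.392). Under that covariate edgeR called 0 of 10 genes in KO+ZnO NPs against WT+ZnO NPs, with 5 at an unadjusted p below 0.05. Over all 18822 genes it called 1 there. DESeq2 without the covariate called 7 of the 10, 6 higher and *Thbs1* lower, beside 2287 of 33243 genes. The interaction remained called for *Cd36* alone under the covariate, with 125 of 18822 genes called.

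The other vascular genes were read from lists of related genes. Of 22 other endothelial genes, 18 fell in WT+ZnO NPs against WT, beside 22.1% of all genes called lower, and none rose. The clotting factor gene *Vwf* (log2 -2.34 ± 0.34, adjusted p = 0.0004), the co-receptor gene *Eng* (-1.46 ± 0.22, adjusted p = 0.000477) and the endothelial matrix gene *Mmrn2* (-2.498 ± 0.371, adjusted p = 0.000506) were among them. In KO against WT 3 of the 22 fell, *Cd34* (-1.23), *Ramp2* (-1.03) and *Aplnr* (-1.44), beside 3.58% of all genes called lower. By edgeR on all libraries 1 gene, the transcription factor gene *Sox17*, was called in KO+ZnO NPs against KO, higher by 1.09 ± 0.27 (adjusted p = 0.0249). There DESeq2 called 4 of 22 higher, and edgeR called 0 on only those groups (3 at an unadjusted p below 0.05) and 0 among libraries free of Y-linked transcripts (7 at an unadjusted p below 0.05). In KO+ZnO NPs against WT+ZnO NPs 6 of 22 were higher (2.13% of all genes), with *Vwf* at 2.12, the phosphatase gene *Ptprm* at 1.44 and the nitric oxide synthase gene *Nos3* at 1.50, and the interaction was positive and called for 13 of 22 (5.08% of all genes). With Y-linked transcripts as a covariate edgeR called 5 of 22 lower in WT+ZnO NPs against WT, beside 2308 of 18822 genes. It then called 0 of 22 in KO against WT (5 at an unadjusted p below 0.05), 0 in KO+ZnO NPs against WT+ZnO NPs (13 at an unadjusted p below 0.05) and 0 in the interaction (11 at an unadjusted p below 0.05). Over all genes it called 962, 1 and 125 in these, and DESeq2 without the covariate called 5, 14 and 19 of the 22. On only the groups compared, edgeR called 0 of 22 in KO+ZnO NPs against WT+ZnO NPs (14 at an unadjusted p below 0.05), where it called 0 of all genes. In KO against WT it called 13 of the 22, all lower, beside 1373 of 17608 genes called lower.

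Summed over the 22 genes, endothelial transcripts ranged from 1462 to 1565 CPM in WT, from 385 to 667 CPM in WT+ZnO NPs, from 854 to 1005 CPM in KO, and stood at 799, 1751 and 828 CPM in KO+ZnO NPs. The 6 lymphatic endothelial genes summed to 266 to 429.8 CPM in WT, 24.9 to 60.9 CPM in WT+ZnO NPs, 183 to 276 CPM in KO and 72.6 to 146 CPM in KO+ZnO NPs. All 6 fell in WT+ZnO NPs against WT (22.1% of all genes), with *Lyve1*, a hyaluronan receptor, at -4.69 ± 0.78 (adjusted p = 0.000956). With the Y-linked covariate 4 of the 6 were called lower, beside 2308 of 18822 genes. The 6 macrophage markers were called lower in this comparison too, and their part in the level of *Lyve1* was not tested. Of the lymphatic genes, *Pdpn* (-1.40 ± 0.33, adjusted p = 0.0227) and *Prox1* (-1.77 ± 0.46, adjusted p = 0.0305), which sets lymphatic identity, also fell in KO+ZnO NPs against KO, beside 8.09% of all genes. There 3 were called lower with the Y-linked covariate, 4 with DESeq2 (of 7 entries it tested) and 4 without libraries labelled WT+ZnO NPs. In whole skin, fewer endothelial cells and less RNA per endothelial cell cannot be told apart.

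**Figure D3:**
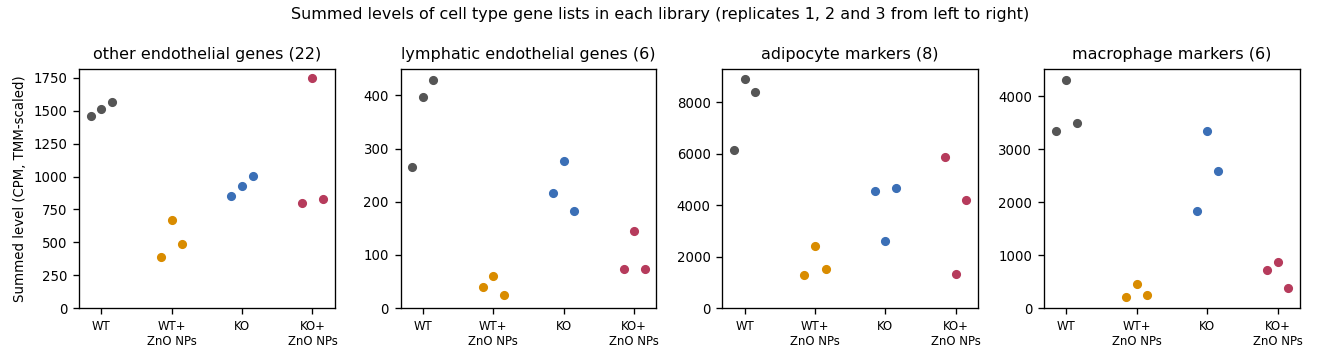
Summed level (vertical axis, CPM scaled by TMM factors, starting at 0, own scale in each panel) of 22 other endothelial, 6 lymphatic endothelial, 8 adipocyte and 6 macrophage genes in each library, with the 3 replicates of each of the 4 groups as points. Libraries labelled WT+ZnO NPs lie below every WT library in all 4 panels, and KO+ZnO NPs replicate 2 is the highest library in the first panel, at 1751 CPM.

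Among 7 further VEGF ligands and receptors, the co-receptor gene *Nrp1* fell in WT+ZnO NPs against WT (log2 -2.32 ± 0.16, adjusted p = 1.59e-05), in KO against WT (-0.88 ± 0.16, adjusted p = 0.00962) and in KO+ZnO NPs against KO (-1.04 ± 0.16, adjusted p = 0.00623), with an interaction of 1.28 ± 0.22 (adjusted p = 0.0106). The call in KO against WT was lost among libraries free of Y-linked transcripts, and that of the interaction with the Y-linked covariate. In WT+ZnO NPs against WT 4 of the 7 fell, beside 22.1% of all genes, including the lymphatic receptor gene *Flt4* (-2.86) and its ligand gene *Vegfd* (-1.37). All 5 genes of the angiopoietin and TIE list fell in that comparison, among them *Angpt2* (-1.92), *Angptl4* (-2.10) and *Tie1* (-1.72). Positive interactions were called for *Angptl4* (2.68) and *Tie1* (2.24), beside 5.08% of all genes. The interaction was called for 1 of the 5 with the Y-linked covariate and for 4 with DESeq2, beside 93 of 18822 and 1695 of 33243 genes called positive. With the Y-linked covariate 3 of the 7 VEGF genes, 1 of the 5 angiopoietin and TIE genes and 3 of the 10 thrombospondin partners were called lower in WT+ZnO NPs against WT, beside 2308 of 18822 genes.

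Of 7 Notch pathway genes, 2 rose in KO against WT, where 4.61% of all genes were called higher, and 3 in WT+ZnO NPs against WT, where 20.8% were. The former count was 1 with RLE scaling, without the filter on low counts, with the replicate block, with the Y-linked covariate and among libraries free of Y-linked transcripts. *Jag1*, a Notch ligand that keratinocytes also express, rose in KO against WT (1.39 ± 0.22, adjusted p = 0.00605) and in WT+ZnO NPs against WT (2.25 ± 0.23, adjusted p = 6.36e-05). *Notch1* rose by 0.75 ± 0.20 and 1.29 ± 0.20 in the same comparisons (adjusted p = 0.0462 and 0.000692). *Hey2* rose in WT+ZnO NPs against WT (1.46 ± 0.48, adjusted p = 0.0316). The other genes of the list were not called in either comparison, among them *Notch4* at -0.45 and -0.49 and *Dll4* at -0.02 and 0.32, examples chosen after their values were seen. The 6 keratinocyte markers summed to 6815 to 9503 CPM in WT, 12336 to 22045 CPM in KO and 5998 to 10245 CPM in WT+ZnO NPs. Of these, *Trp63*, a transcription factor gene of basal keratinocytes, was called higher in both comparisons (1.17 and 1.62) and the basal keratin gene *Krt5* in the latter (0.95), where *Krt1* (-2.12) and *Krt10* (-2.31), keratin genes of the upper layers, were called lower. The call of *Trp63* in KO against WT was lost with the Y-linked covariate, among libraries free of Y-linked transcripts and without libraries labelled WT+ZnO NPs. DESeq2 called 4 of the 6 markers higher there, beside 1643 of 33243 genes. The part of these markers in the levels of *Jag1* and *Notch1* was not tested. *Jag1* was lower in KO+ZnO NPs than in WT+ZnO NPs (-0.997 ± 0.222, adjusted p = 0.0435), a call lost with the Y-linked covariate, without the filter on low counts and with edgeR on only these groups.

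The 10 pericyte and vascular smooth muscle genes changed in both directions. In WT+ZnO NPs against WT 5 fell, among them *Mcam* (-1.13), an adhesion gene of vessel walls, and the channel gene *Kcnj8* (-1.22), and the pericyte proteoglycan gene *Cspg4* rose (1.11), beside 22.1% of all genes called lower and 20.8% higher. In KO against WT 2 rose, *Cspg4* (1.19) and the growth factor receptor gene *Pdgfrb* (0.80), and 2 fell, *Mcam* (-0.63) among them, beside 4.61% and 3.58% of all genes. Neither fall was called without the filter on low counts, with the replicate block, with the Y-linked covariate or among libraries free of Y-linked transcripts, settings in which 1 gene rose. With the covariate 2 rather than 5 were called lower in WT+ZnO NPs against WT. Their summed level was 849.9 to 930.4 CPM in WT, 686 to 850.3 CPM in WT+ZnO NPs, 794 to 929 CPM in KO and 753 to 893 CPM in KO+ZnO NPs. The WT and WT+ZnO NPs ranges met in this sum, unlike those of the endothelial sum.

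Of 10 other genes listed as angiogenesis inhibitors, 4 fell and 1 rose in WT+ZnO NPs against WT (22.1% of all genes were called lower and 20.8% higher). The rise was not called with the replicate block or the Y-linked covariate. *Isg15*, an interferon-induced ubiquitin-like protein gene, fell by 3.54 ± 0.31 (adjusted p = 3.37e-05), the proteoglycan gene *Dcn* by 2.02 ± 0.41 (adjusted p = 0.00286) and *Vash1*, an inhibitor made by endothelial cells, by 1.48 ± 0.33 on the log2 scale (adjusted p = 0.00524). *Isg15* also fell in KO against WT (-3.93 ± 0.32, adjusted p = 0.000337), and *Vash1* in KO+ZnO NPs against KO (-1.29 ± 0.33, adjusted p = 0.0292). Of 12 hypoxia response genes, a programme in which *Vegfa* takes part, 3 fell in WT+ZnO NPs against WT, a share near the 22.1% of all genes called lower there: *Epas1* (-1.24), *Bnip3* (-1.16) and *Adm* (-1.33). *Bnip3* (1.07), *Epas1* (0.85) and the glucose transporter gene *Slc2a1* (1.65) were higher in KO+ZnO NPs than in WT+ZnO NPs, beside 2.13% of all genes. There DESeq2 called 5 of the 12 higher, beside 1370 of 33243 genes. With the Y-linked covariate edgeR called 0 of 12 there (6 at an unadjusted p below 0.05), and on only these groups 0 (8 at an unadjusted p below 0.05). Over all genes it called 1 and 0 in these settings. Of the 4 platelet markers tested, *Pf4* (-5.02) and *Ppbp* (-4.51) fell in WT+ZnO NPs against WT, beside 22.1% of all genes called lower. There *Itga2b* (0.33, adjusted p = 0.235) and *Gp1ba* (0.64, adjusted p = 0.226) were not called. In KO against WT *Pf4* (-2.33, adjusted p = 0.0171) and *Ppbp* (-3.39, adjusted p = 0.0253) fell and *Itga2b* rose (0.81, adjusted p = 0.0447), beside 3.58% of all genes called lower and 4.61% higher. In KO+ZnO NPs against KO *Pf4* fell (-1.70), beside 8.09% of all genes. Without libraries that hold Y-linked transcripts no platelet marker was called lower in either comparison (4 and 1 of the 4 had an unadjusted p below 0.05), and the rise of *Itga2b* was not called with library size as the only scaling, without the filter on low counts, with the replicate block or without libraries labelled WT+ZnO NPs. On only the groups compared *Pf4* was not called in KO+ZnO NPs against KO. Platelets store thrombospondin-1, and the part of these markers in the level of *Thbs1* was not tested.

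Within each library, *Vegfa*, *Kdr*, *Flt1* and *Tek* were set against the geometric mean of *Pecam1* and *Cdh5*, a ratio that a change in the share of endothelial cells alone would leave as it is for endothelial genes. The log2 ratio of *Vegfa* was -1.09, -1.14 and -0.94 in WT and 1.90, 0.415 and 1.05 in libraries labelled WT+ZnO NPs. It was -0.42, -0.35 and -0.43 in KO and -0.01, -2.15 and 0.39 in KO+ZnO NPs. The ratio of *Vegfa* was thus higher in every WT+ZnO NPs library than in every WT library, by 2.18 on the log2 scale. *Vegfa* is not an endothelial gene, so its ratio rises with any fall of the denominator. *Pecam1* (-2.02) and *Cdh5* (-1.64) were called lower in this comparison, whereas *Vegfa* itself (0.27) was not called. The ratio is therefore no separate result about *Vegfa*. The ratio of *Flt1* was higher by 0.46 in WT+ZnO NPs and by 0.55 in KO than in WT, both without overlap. The ratio of *Kdr* was higher by 0.445 in WT+ZnO NPs than in WT, and that of *Tek* differed by -0.12. In KO+ZnO NPs against WT+ZnO NPs the ratio differed by -0.936 for *Kdr* and by -1.71 for *Vegfa*, and in KO against WT by 0.661 for *Vegfa*. With 3 libraries against 3 the exact two-sided permutation test cannot give a p below 0.1, which these ratio differences other than that of *Tek* (p = 0.7) reached. Adjusted over the 16 ratios and comparisons, the lowest p was 0.229. With the 22 other endothelial genes as the denominator the differences of WT+ZnO NPs from WT were -0.05 for *Kdr* and -0.04 for *Flt1*, the opposite sign, -0.622 for *Tek* (p = 0.1 by the exact permutation test, the lowest it can give) and 1.68 for *Vegfa*.

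**Figure D4:**
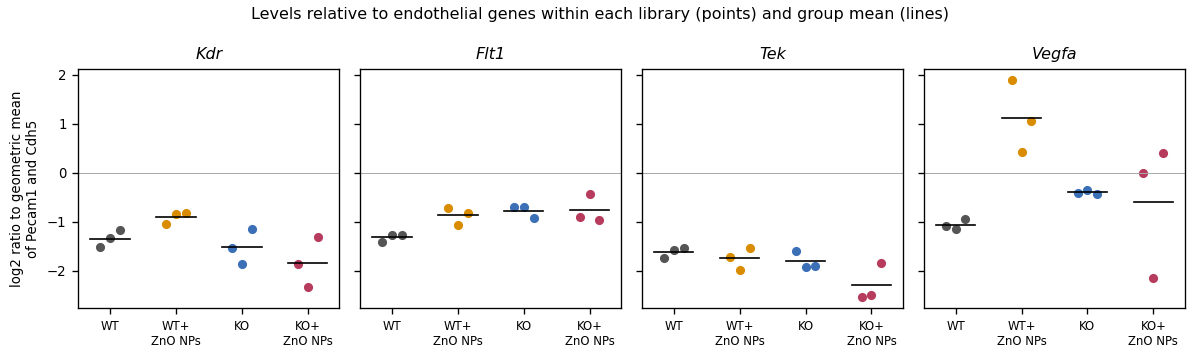
Log2 ratio of *Kdr*, *Flt1*, *Tek* and *Vegfa* to the geometric mean of *Pecam1* and *Cdh5* (vertical axis, one scale for all panels) in each library of the 4 groups (points) with the group mean (line). The *Vegfa* ratio is above 0 in the 3 WT+ZnO NPs libraries (0.415 to 1.90) and below -0.9 in the WT libraries, while KO+ZnO NPs replicate 2 falls to -2.15.

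Across the 12 libraries, log2(CPM + 1) of the endothelial genes moved together, with Pearson correlations of 0.96 for *Pecam1* and *Cdh5*, 0.945 for *Flt1* and *Cdh5*, and 0.929 for *Kdr* and *Tek*. *Cd47* followed *Cd36* (0.941) and *Tek* (0.927). *Vegfa* ran against *Flt1* (-0.858) and *Cdh5* (-0.79). *Thbs1* followed none of the other 9 genes, with correlations between -0.0826 and 0.162, and its correlation with *Thbs2* was 0.0363. These are descriptions over libraries that fall into 4 groups and share their scaling.

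Of 14399 protein-coding genes averaging 1 CPM or more, those most like *Pecam1* over the 12 libraries were *Cyyr1* (0.987), *Plvap* (0.985), *Erg* (0.979), *Mmrn2* (0.977) and *Sema6b* (0.976). *Plvap*, *Erg* and *Mmrn2* are also in the list of other endothelial genes. Those most like *Thbs1* were the kinase gene *Plk2* (0.871), the calcium pump gene *Atp2a2* (0.852), the lipoxygenase gene *Alox12* (0.802), *Map3k15* (0.797) and *Gm6377* (0.793), none of them an endothelial gene of the lists.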

How the data were processed

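RNA of skin from 12 mice was sequenced, and the authors deposited a table of raw counts per gene and library, without normalization. According to the study's methods, poly-A RNA was sequenced paired-end, aligned with STAR and counted with HTSeq. The submitters' processing notes name HISAT2 2.0.5 and mm10, so the aligner is given in 2 ways, and the labels and methods also name different library kits. Use of strand in counting is not given in the sources used here.

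Groups came from the sample labels. Of 52636 genes, 52489 were named in GENCODE M21 (GRCm38), and 0 entries named no gene. As a check for duplicate deposits, replicates were compared, and none were within sampling noise of each other (chi-square per degree of freedom 27.3 to 116).

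Counts were tested in R 4.3.3 with the quasi-likelihood test of edgeR 4.0.16 (TMM factors, its low-count filter, 1 coefficient per group, all 12 libraries in 1 fit, common dispersion 0.109), with Benjamini-Hochberg adjustment over 18822 genes. Standard errors and 95% intervals were derived from the F statistics and are approximate. The scripts were tested on simulated data. Ratios were compared with exact two-sided permutation tests in scipy 1.17.1. Correlations used a pseudocount of 1. Alternatives were DESeq2 1.42.0, other scalings and filters (none, or 10 counts in every library), a replicate block, Y-linked transcripts as a covariate (libraries over 10 CPM in the sum of *Ddx3y*, *Eif2s3y*, *Kdm5d* and *Uty*), the compared groups alone, and leaving out libraries. The counts of list genes under these alternatives were added after the data had been seen.

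The 10 genes were given in each comparison, with up to 3 called genes of smallest adjusted p per list and comparison, and the 5 genes most correlated with *Thbs1* and with *Pecam1*. The genes and lists were chosen with earlier results of these data known. RefSeq promoters matched 7 of the 10 genes; *Thbs1*, *Pecam1* and *Cdh5* had no entry.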

Additional observations from a re-analysis of the deposited data

Results flagged for a closer look

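The change with ZnO NPs differed between WT and KO skin for 3 of the 10 genes by the interaction term of edgeR, beside 8.68% of all genes called and 5.08% called positive. For *Cd36* the log2 interaction was 2.15 (adjusted p = 0.00874), for *Cd47* 1.21 (adjusted p = 0.0128) and for *Pecam1* 2.27 (adjusted p = 0.0328). When Y-linked transcripts entered the fit as a covariate, the interaction of *Cd47* was 1.01 (adjusted p = 0.116) and that of *Pecam1* 1.77 (adjusted p = 0.220), so *Cd36* alone stayed called. Over all genes 125 of 18822 had a called interaction in that fit. The interactions of *Cd36* and *Cd47* stayed called when any 1 library was left out. That of *Pecam1* was lost without each WT library (2.25, 2.25 and 2.31, adjusted p = 0.0627, 0.0799 and 0.0659), without WT+ZnO NPs replicates 1 and 3 (2.03 and 2.18, adjusted p = 0.0562 and 0.0847) and without each KO library (2.17, 2.29 and 2.32, adjusted p = 0.0772, 0.0576 and 0.0699). The WT+ZnO NPs libraries, whose *Cdc42* level goes against their label, enter each of these values.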

How the results depend on the processing

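Of the values recomputed under alternatives, 730 kept their direction and side of the threshold, 50 lost a call, 23 gained one and 19 changed sign. The number of the 10 genes called in WT+ZnO NPs against WT was 8, and 4 with Y-linked transcripts as a covariate. In KO against WT it was 1, and 5 with edgeR on only the 6 libraries compared (adding *Thbs2*, *Pecam1*, *Cdh5* and *Tek*), 0 without libraries that hold Y-linked transcripts (3 at an unadjusted p below 0.05; DESeq2 on all libraries called 1), and 0 to 1 when 1 library was left out. In KO+ZnO NPs against KO it was 1, and 2 with DESeq2, and 0 to 1 when 1 library was left out. In KO+ZnO NPs against WT+ZnO NPs it was 3, and 0 with the Y-linked covariate (5 at an unadjusted p below 0.05), 0 with edgeR on only the groups compared (6 at an unadjusted p below 0.05), 7 with DESeq2, and 0 to 6 when 1 library was left out: 0 without WT+ZnO NPs replicate 1 or 3 or KO+ZnO NPs replicate 1 or 2, and 6 without KO+ZnO NPs replicate 3. The interaction was called for 3, and for 1 with the Y-linked covariate, 6 with DESeq2, and 2 to 6 when 1 library was left out (6 without KO+ZnO NPs replicate 3). The cause of these differences was not tested.

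Replicate numbers are shared between groups. Same-numbered libraries deviated together (correlation over 0.1) in 4 of 18 pairs, from -0.343 to 0.429, and differently numbered ones in 5 of 36 pairs, from -0.414 to 0.366. In 17 of 36 cases a library correlated best with its own number among the 3 libraries of another group. These values do not settle whether the numbers are pairs, and the main fit did not take them as pairs. With the replicate block 2 of 10 genes were called in KO+ZnO NPs against KO, adding *Thbs1* (log2 -1.60, adjusted p = 0.0314), and *Thbs1* was also called lower in KO+ZnO NPs against WT+ZnO NPs (-2.04, adjusted p = 0.0406). It changed no other call of the 10 genes.

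Signs changed only for uncalled values. With the Y-linked covariate they became -0.004 for *Vegfa* and 0.109 for *Flt1* in KO against WT and -0.338 for *Thbs1* in WT+ZnO NPs against WT; without libraries holding Y-linked transcripts, 0.062 for *Tek* in KO+ZnO NPs against KO. Leaving out 1 library gave -0.633 to 0.097 for *Thbs1* and -0.018 to 0.094 for *Vegfa* in KO against WT, -0.017 to 0.774 for *Thbs1* in WT+ZnO NPs against WT, and, in KO+ZnO NPs against KO, -0.212 to 0.165 for *Vegfa*, -0.544 to 0.103 for *Kdr*, -0.541 to 0.917 for *Flt1*, -0.359 to 0.556 for *Pecam1* and -0.432 to 0.834 for *Cdh5*. Ratios to other endothelial genes became -0.0539 for *Kdr* and -0.0393 for *Flt1* in WT+ZnO NPs against WT and -0.0644 for *Flt1* in KO+ZnO NPs against KO; ratios to *Pecam1* alone, -0.106 for *Flt1* in KO+ZnO NPs against WT+ZnO NPs and 0.0633 for *Tek* in WT+ZnO NPs against WT.

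Over all genes, KO+ZnO NPs against WT+ZnO NPs called 618, and 2287 with DESeq2, 1 with the Y-linked covariate, 284 without a filter and 0 with edgeR on only those groups (3067 at an unadjusted p below 0.05). Other counts that moved by over 1.5 times without leaving out single libraries were, in KO against WT, 1540 against 3003 with DESeq2, 2794 on only the groups, 694 without libraries holding Y-linked transcripts and 962 with the covariate; in WT+ZnO NPs against WT, 8085 against 3896 with the covariate; in KO+ZnO NPs against KO, 2759 against 4236 with DESeq2 and 571 on only the groups; and for the interaction, 1633 against 3129 with DESeq2, 1086 without a filter and 125 with the covariate. When 1 library was left out, KO against WT called 377 to 917 (774, 377 and 620 without WT replicate 1, 2 or 3, and 785, 917 and 774 without KO replicate 1, 2 or 3). The interaction called 461 to 1646 (461 to 945 without WT replicate 1, 2 or 3, WT+ZnO NPs replicate 3 or KO replicate 1 or 3), KO+ZnO NPs against KO 451 to 3195 (451, 1055 and 1484 without KO replicate 2, KO replicate 3 or KO+ZnO NPs replicate 2), KO+ZnO NPs against WT+ZnO NPs 1 to 1609 (304, 334 and 1 without WT+ZnO NPs replicate 1, 2 or 3, and 57, 211 and 1609 without KO+ZnO NPs replicate 1, 2 or 3) and WT+ZnO NPs against WT 5942 to 7177. With library size as the only scaling the median of all genes moved from 0.0563 to 0.163 in WT+ZnO NPs against WT, where 4717 genes were called higher and 3614 lower in place of 3922 and 4163. It moved from 0.0405 to -0.112 in KO+ZnO NPs against WT+ZnO NPs (258 higher and 516 lower in place of 400 and 218) and from 0.0244 to -0.129 for the interaction (660 and 1001 in place of 957 and 676), and no direction of the 10 genes changed.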
